A study of Mus musculus with 4 samples.

Results

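The genes that carry pyruvate into the mitochondrion and through the citric acid cycle, 36 in all, were read from the count table of sorted intestinal stem cells (ISCs) of young and old mice. They were picked by gene symbol from a list of the pathway's carriers, enzymes, kinases and phosphatase, and all 36 were found among the 52459 genes of the table. Young ISCs (ISC_2mth) came from wild-type (WT) C57/Bl6 mice of 2 months and old ISCs (ISC_22mth) from WT C57/Bl6 mice of 22 months, with no treatment or reporter allele named in the labels of either age. Cells were isolated by FACS with the SM6 surface marker strategy, and each age had 2 libraries, each made from the pooled cells of 5 animals. The spread between libraries is therefore a spread between pools and says little about single animals. The RNA was copied along the whole transcript by the SPIA method, a linear amplification without molecular identifiers, before sequencing.

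Pyruvate, the end product of glycolysis, crosses the inner mitochondrial membrane through a carrier of MPC1 and MPC2 and is turned into acetyl-CoA by the pyruvate dehydrogenase complex, which kinases switch off and phosphatases switch on. The citric acid cycle then oxidizes acetyl-CoA, feeds electrons to the respiratory chain, and supplies citrate, 2-oxoglutarate and oxaloacetate for biosynthesis. In the intestinal crypt, pyruvate oxidation is known to be low in stem cells relative to differentiated cells, and limiting pyruvate import has been linked to stem cell proliferation.

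Total counts were between 11662654 and 15975698 per library, and between 3852178 and 4593004 once mitochondrially encoded genes were set aside, which took 62.6% to 65.7% of the counts in young and 72.9% to 73.8% in old ISCs. Levels are given as CPM, the count of a gene relative to its library total corrected by TMM factors, and a floor of 3 counts lay between 0.198 and 0.245 CPM. In the markers of the sorted cells, the sum over 10 ISC genes including Lgr5 and Olfm4 was 2756 to 2938 CPM in young and 2765 to 2968 CPM in old ISCs, and none of the 10 passed the edgeR test between ages that is used for all genes here (FDR under 0.05). Within this sum, both old pools lay below both young pools for Lgr5, Axin2, Sox9 and Tnfrsf19, and above them for Ascl2 and Slc12a2. Axin2 was at 148.5 and 127.8 CPM in young and 101.8 and 98.45 CPM in old ISCs. Slc12a2 was at 868.2 and 838.9 CPM against 1005 and 1026 CPM. The paper's own list of differentially expressed genes has Axin2 lower and Slc12a2 higher in old ISCs. Enterocyte markers summed to 493 and 614 CPM in young and to 1039 and 919 CPM in old ISCs, and 4 of the 10 (Fabp1, Fabp2, Sis and Rbp2) were higher in old ISCs. Paneth cell markers summed to 949 and 725 CPM in young and to 2094 and 813 CPM in old ISCs, with 2 of 8 (Defa17 and Defa24) higher and old pool 1 apart from the rest. The sums of goblet cell and of enteroendocrine markers overlapped between ages, with no gene called, and young pool 1 was the lowest in the enteroendocrine sum (40.4 CPM, against 93.2 to 151 CPM in the other pools). Tuft cell markers summed to at most 9.52 CPM (Dclk1 higher, Il25 at 0) and stromal and endothelial markers to at most 1.32 CPM (Col1a2, Col3a1 and Cdh5 at 0). Leukocyte markers other than Itgam, which was higher in old ISCs, summed to at most 4.89 CPM, with Cd79a among those at 0. The part of any of these cells in the values of the pathway genes was not tested.

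Of the 36 genes, 34 passed the filter on low values, which asked for over 5 reads and over 1 CPM in any pool, and each of the 34 passed it in pools of both ages. Dld, Mdh1 and Idh1 were higher in old ISCs (edgeR's quasi-likelihood test with Benjamini-Hochberg adjustment over all 13692 genes tested, FDR under 0.05), and none of the 34 was lower. Limma and edgeR's likelihood ratio test called the same 3 and DESeq2 called Dld and Mdh1, with none lower in any of them. The paper's own limma list at an FDR under 0.05 holds Dld, Mdh1 and Idh1, and also Sdha, Sdhb and Me2, all higher in old ISCs. Across all genes tested 2.26% passed this threshold, and 1.63% passed it with a higher level in old ISCs. At an unadjusted p under 0.05, 11 of the 34 were higher and 0 lower, beside 9.26% of all genes higher and 16.9% in either direction. The log2 fold change of old over young ISCs was above 0 in 29 of 34 genes (85.3%), against 49.5% of all genes, with a median of 0.20 against -0.0049, while scaling by total counts put 4 of 34 members and 1342 of all 13692 genes above 0. In 19 of the 34 the 2 old pools were higher than either young pool, and in 1, Me3, lower, beside 24.0% and 23.6% of all genes tested. In pooled cells, a change in the number of cells of a type and a change in the RNA per cell cannot be told apart. The p-values rest on the spread between these pools, which edgeR moderates for each gene toward that of other genes. An exact permutation of 2 pools against 2 cannot give a p below 0.333.

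**Figure D1:**
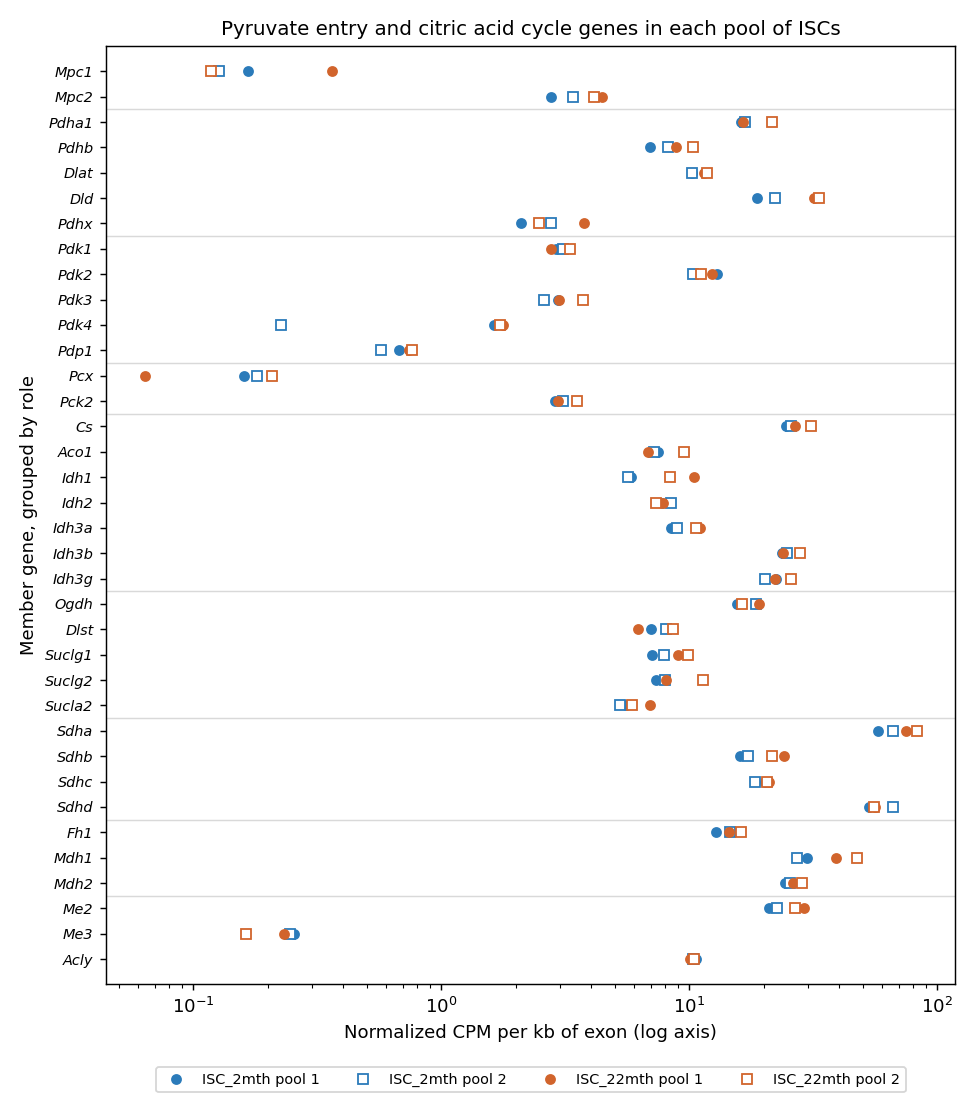
Normalized CPM per kb of exon (horizontal log axis) of the 36 genes, in rows grouped by role, in each of the 4 pools (blue, young; orange, old; circles, pool 1; open squares, pool 2). Old pools sit to the right of both young pools for Dld, Mdh1 and Idh1, and a lone young square marks Pdk4 in young pool 2.

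The direction depended on how libraries were scaled. With TMM the log2 fold changes were relative to the bulk of genes outside the mitochondrially encoded ones. Scaled by total counts, of which mitochondrially encoded genes took more in old ISCs, the median of all genes was -0.495, and Pdk4, Idh1, Dld and Mdh1 lay above 0 and 30 of the 34 genes below, with a median of -0.29. None of the 3 calls held in that scaling (FDR 0.315 for Dld, 0.567 for Mdh1 and 0.341 for Idh1 by edgeR). In it 9 of the 34 were called lower instead (Pdk1, Pdk2, Idh2, Idh3b, Ogdh, Dlst, Sdhc, Sdhd and Acly), beside 33.1% of all genes tested. Relative to that all-gene median, 29 of the 34 were again above it, by a median of 0.21.

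**Figure D2:**
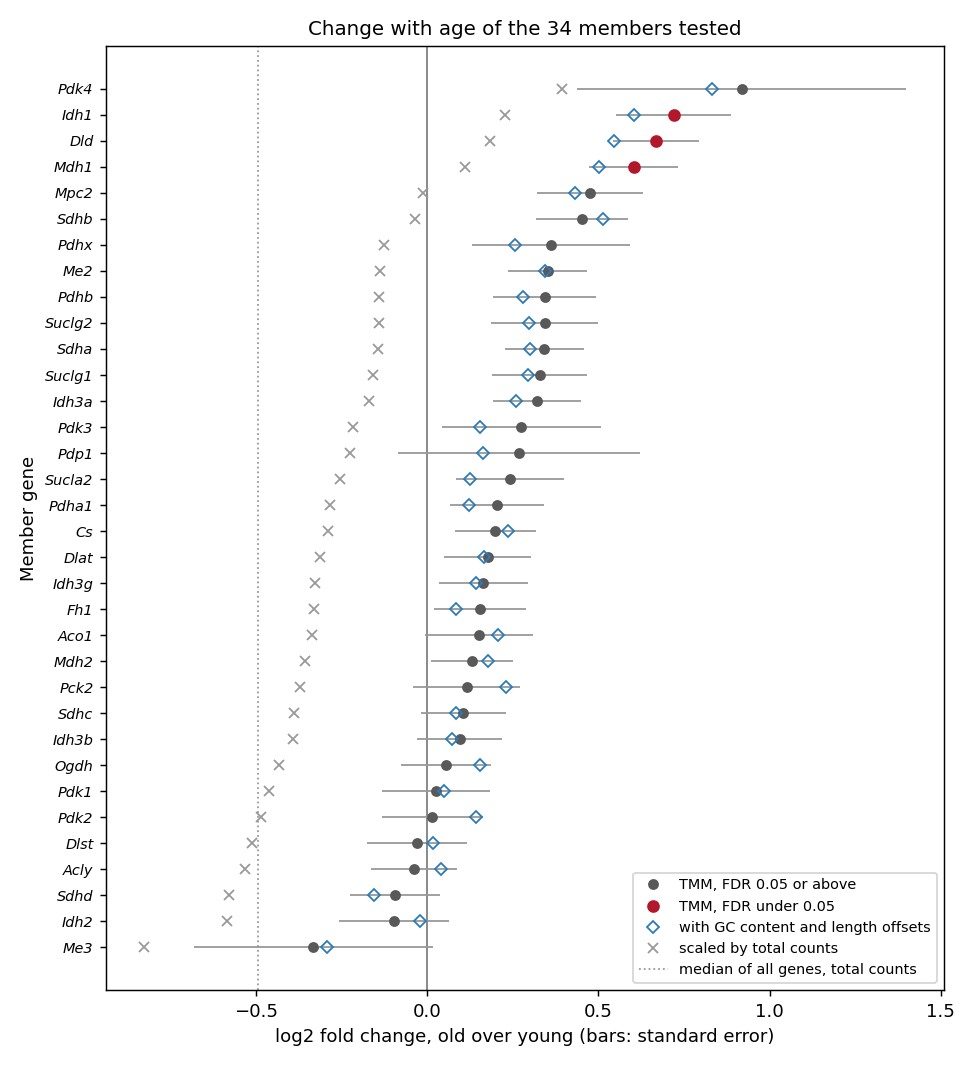
Log2 fold change of old over young ISCs (horizontal axis) for the 34 genes tested (rows), with standard errors as bars; filled points are the TMM values, diamonds the values after offsets for GC content and length, and crosses those scaled by total counts. The 3 called genes are red, 29 filled points lie right of 0, and 29 of the 34 crosses lie right of the dotted all-gene median of -0.495.

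Dld encodes dihydrolipoamide dehydrogenase, the E3 subunit that the pyruvate and 2-oxoglutarate dehydrogenase complexes share, and lies on chromosome 12 from 31331277 to 31351453 (GRCm38, minus strand). Its counts were 1001 and 1238 in young and 1552 and 1497 in old ISCs, or 69.0 and 81.9 CPM against 117 and 122 CPM. The ages did not overlap, with means of 75.4 ± 9.16 CPM in young and 120 ± 3.65 CPM in old ISCs (SD, n = 2). This was a log2 fold change of 0.67 (SE 0.13, FDR 0.00815 by edgeR's quasi-likelihood test). It was 0.55 with offsets for GC content and length (FDR 0.0476), the only one of the 36 genes called in that fit, in which 1.37% of all genes were called. Without young pool 1, Dld was at 0.55 with an FDR of 0.119.

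Mdh1 encodes the cytosolic malate dehydrogenase, which works in the malate-aspartate shuttle that carries reducing equivalents into mitochondria. It lies on chromosome 11 from 21556787 to 21572367 (minus strand), and 52 bp of its exons overlap Wdpcp on the opposite strand, which counting without strand could not tell apart. Its counts were 1109 and 1053 in young and 1326 and 1488 in old ISCs, or 76.4 and 69.7 CPM against 100.2 and 122 CPM. The ages did not overlap, although the old pools were further apart (SD 15.2 CPM, n = 2) than the young pools (SD 4.76 CPM). Its log2 fold change was 0.60 (SE 0.13, FDR 0.0179 by edgeR), and 0.50 with the GC and length offsets (FDR 0.0711). Without young pool 2 it was 0.53 with an FDR of 0.0912.

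Idh1 encodes the cytosolic, NADP-dependent isocitrate dehydrogenase, which makes 2-oxoglutarate and NADPH, and lies on chromosome 1 from 65158616 to 65186500 (minus strand). Its counts were 234 and 236 in young and 384 and 284 in old ISCs, or 16.1 and 15.6 CPM against 29.0 and 23.2 CPM. The young pools were nearly alike (SD 0.358 CPM, n = 2) and the old pools differed by more (SD 4.09 CPM), with both above the young. Its log2 fold change of 0.72 (SE 0.17) had an FDR of 0.0270 by edgeR, and was 0.60 with offsets (FDR 0.0762). The call was the least firm of the 3. The FDR was 0.0730 without young pool 1, 0.0834 without young pool 2, 0.0838 without old pool 1, and 0.000370 without old pool 2.

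The sequences just upstream of Dld and Idh1 are printed because these are called members whose RefSeq window (GRCm38.p6) does not lie inside the annotated gene, as that of Mdh1 does. They run 5′ to 3′ on the minus strand, toward the gene, at chr12:31351472-31351721 for Dld and chr1:65186501-65186729 for Idh1. Capitals mark CG dinucleotides, the sites at which DNA can be methylated.
Dld upstream: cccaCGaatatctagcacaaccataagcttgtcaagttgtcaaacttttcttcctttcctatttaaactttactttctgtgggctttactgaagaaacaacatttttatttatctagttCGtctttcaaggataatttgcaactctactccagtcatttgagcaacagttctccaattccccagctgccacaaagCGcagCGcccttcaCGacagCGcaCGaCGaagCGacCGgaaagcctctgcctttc
Idh1 upstream: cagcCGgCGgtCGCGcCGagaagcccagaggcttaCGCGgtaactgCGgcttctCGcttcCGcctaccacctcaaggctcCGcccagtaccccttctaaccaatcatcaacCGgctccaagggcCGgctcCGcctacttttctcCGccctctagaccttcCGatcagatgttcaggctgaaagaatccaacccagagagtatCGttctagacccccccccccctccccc
The Dld stretch holds 10 CG dinucleotides, 8 of them in the 100 bases nearest the gene, and the 250 bases are 43.6% G and C. The printed Idh1 stretch holds 17, with 4 in the nearest 100 bases, and its 250 bases are 61.6% G and C. The letters TCAAGGTCA of the estrogen-related receptor element were in 0 of the 32 members' promoters that matched and in 0.387% of all 32851, and CCGGAAGT of ETS factors and GABPA was in 0 and 2.88%, on either strand of 250 bases. AP-1's TGACTCA was in 0 of 32 and 4.46%, and NRF1's GCGCATGC was in that of Sdhb alone, beside 2.26% of all. None of the 4 was in the windows of Dld, Mdh1 and Idh1, which says only that these letters are not there.

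For pyruvate import, Mpc2 was measured and Mpc1 hardly at all. Mpc1 had 5 and 4 counts in young and 10 and 3 in old ISCs, between 0.245 and 0.756 CPM, which is near the floor and below the filter, so that it was not tested. The 26.3% of its 50-nt stretches that other genes share, most with an antisense gene over 480 bp, adds doubt to these counts. Mpc2 had 294 and 378 counts in young and 431 and 371 in old ISCs, or 20.2 and 25.0 CPM against 32.6 and 30.3 CPM. The ages did not overlap, at a log2 fold change of 0.47 (SE 0.15), and the gene did not pass the test (FDR 0.120 by edgeR).

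The pyruvate dehydrogenase complex makes acetyl-CoA from pyruvate, and all 5 of its subunits had log2 fold changes above 0 (1 of 5, Dld, by total counts), with a median of 0.34 and 1 of them, Dld, called. Pdha1 and Pdhb encode the catalytic E1 subunits. Pdha1 was at 60.3 and 62.6 CPM in young and 61.5 and 80.2 CPM in old ISCs, so that the ages overlapped, with a log2 fold change of 0.20 (SE 0.14, FDR 0.479 by edgeR), which was 0.39 without old pool 1 and 0.0026 without old pool 2. Other genes share 12.9% of its stretches, and 603 bp of its exons overlap Map3k15 on the opposite strand. Pdhb was at 26.8 and 31.6 CPM in young and 34.00 and 40.07 CPM in old ISCs, which did not overlap, with a log2 fold change of 0.34 (SE 0.15, FDR 0.248 by edgeR). Other genes, mostly the pseudogene Gm6123, share 11.4% of its stretches. Dlat, the E2 transacetylase, was at 0.18 (SE 0.13, FDR 0.512), and Pdhx, the protein that binds E3 to the complex, at 0.36 (SE 0.23, FDR 0.452), by the same test. Pdhx was at 8.197 and 10.85 CPM in young and 14.7 and 9.73 CPM in old ISCs, which overlapped, and its log2 fold change was 0.031 without old pool 1 and 0.63 without old pool 2.

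The kinases PDK1 to PDK4 phosphorylate and inhibit the complex, and none of them was called with TMM on all 4 pools and no block, while Pdk1 and Pdk2 were called lower by total counts. Pdk1 was at 22.5 and 23.9 CPM in young and 21.6 and 25.7 CPM in old ISCs, with a log2 fold change of 0.026 (SE 0.16, FDR 0.954 by edgeR). Pdk2, which per exon length was the highest of the 4, was at 40.8 and 32.8 CPM in young and 39.1 and 35.2 CPM in old ISCs, with a log2 fold change of 0.015 (SE 0.15, FDR 0.972 by edgeR). Pdk2 and Pdk1 changed sign between scalings and the pools of both ages overlapped. Pdk3 was at 7.58 and 6.62 CPM in young and at 7.63 and 9.57 CPM in old ISCs, with a log2 fold change of 0.28 (SE 0.23, FDR 0.587 by edgeR). As a share of the 4 kinases' level per length within each library, Pdk2 took 63.3% and 63.7% in young and 62.2% and 55.9% in old ISCs, so that it made up the larger part of the kinase RNA at both ages. Pdp1, the catalytic subunit of the phosphatase that reactivates the complex, was low in all pools (39 to 44 counts), with a log2 fold change of 0.27 (SE 0.35, FDR 0.754 by edgeR).

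Pdk4, the kinase induced in fasting and fatty acid use, had the largest log2 fold change of the 34, at 0.92 (SE 0.48), and did not pass (FDR 0.348 by edgeR). Its counts were 83 and 12 in young and 82 and 74 in old ISCs, or 5.72 and 0.794 CPM against 6.20 and 6.05 CPM. Young pool 1 was near both old pools, and young pool 2 alone was low. Young pool 2 differed from young pool 1 by -2.85 on the log2 scale, and 64 of 13692 genes tested were as low or lower in it relative to pool 1, or 17 of the 11680 with at least 20 counts in pool 1. Its log2 fold change was 2.93 without young pool 1 and 0.096 without young pool 2, and it passed the test in the former case, so its value rests on which of the young pools is taken. The share of Pdk4 in the 4 kinases was 8.00% and 1.39% in young and 8.88% and 8.67% in old ISCs.

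Pyruvate carboxylase (Pcx), which refills the cycle with oxaloacetate, had 11 and 13 counts in young and 4 and 12 in old ISCs, between 0.302 and 0.981 CPM, and was not tested. Pck2, the mitochondrial phosphoenolpyruvate carboxykinase, had 324 and 366 counts in young and 304 and 336 in old ISCs, with a log2 fold change of 0.12 (SE 0.16, FDR 0.765 by edgeR).

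From citrate to 2-oxoglutarate, 6 of 7 genes had log2 fold changes above 0 (1 of 7, Idh1, by total counts), with a median of 0.16 and only Idh1 called. Cs, citrate synthase, which joins acetyl-CoA to oxaloacetate, was at 142 and 149 CPM in young and 155 and 180 CPM in old ISCs. The ages did not overlap, but the log2 fold change of 0.20 (SE 0.12) did not pass (FDR 0.421 by edgeR), and it was 0.30 without old pool 1 and 0.089 without old pool 2. Aco1, the cytosolic aconitase and iron regulatory protein, was at 0.15 (FDR 0.673 by edgeR). Of the mitochondrial NAD-dependent isocitrate dehydrogenase, Idh3a, its catalytic subunit, was at 42.7 and 45.3 CPM in young and 56.2 and 53.7 CPM in old ISCs, with a log2 fold change of 0.32 (SE 0.13, FDR 0.210 by edgeR). The other two subunits, Idh3b and Idh3g, were at 0.095 and 0.16 (FDR 0.756 and 0.561 by edgeR). Idh3g was at 0.27 without old pool 1 and 0.055 without old pool 2. Idh2, the mitochondrial NADP-dependent enzyme, was at 20.1 and 21.9 CPM in young and 20.2 and 19.1 CPM in old ISCs, with a log2 fold change of -0.096 (SE 0.16, FDR 0.817 by edgeR).

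From 2-oxoglutarate to succinate, none of 5 genes was called with TMM on all 4 pools (Ogdh and Dlst were lower by total counts), and the median was 0.24. Ogdh, the E1 subunit of the 2-oxoglutarate dehydrogenase complex, was at 84.7 and 101 CPM in young and 104 and 89.1 CPM in old ISCs, with a log2 fold change of 0.055 (SE 0.13, FDR 0.875 by edgeR). Dlst, its E2 subunit, was at -0.029 (SE 0.15, FDR 0.944 by edgeR), and pools of both ages overlapped in both genes. Suclg1, the alpha subunit of succinyl-CoA ligase, was at 32.6 and 36.6 CPM in young and 41.4 and 45.7 CPM in old ISCs, with a log2 fold change of 0.33 (SE 0.14, FDR 0.232 by edgeR). Suclg2, the GTP-forming beta subunit, was at 34.03 and 36.78 CPM in young and 37.3 and 52.6 CPM in old ISCs, with a log2 fold change of 0.34 (SE 0.16, FDR 0.275 by edgeR). Old pool 2 alone stood well above the rest, and the log2 fold change was 0.078 without it and 0.57, with a call (FDR 0.0113 by edgeR), without old pool 1. Other genes, mostly the pseudogene Gm15163, share 16.0% of the stretches of Suclg2. Sucla2, the ATP-forming beta subunit, was at 0.24 (SE 0.16, FDR 0.466 by edgeR), and its log2 fold change was 0.11 without old pool 1 and 0.36 without old pool 2. Suclg2's share of the beta subunits, per length, was 57.0% and 60.3% in young and 53.9% and 66.1% in old ISCs, and the ages overlapped.

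Succinate dehydrogenase, complex II of the respiratory chain, oxidizes succinate to fumarate, and none of its 4 subunits was called with TMM on all 4 pools, while Sdhc and Sdhd were called lower by total counts, Sdha was called higher without old pool 1 and Sdhb without old pool 2. Sdha, the flavoprotein subunit, was at 238 and 273 CPM in young and 307 and 340.2 CPM in old ISCs, at a log2 fold change of 0.34 (SE 0.11, FDR 0.131 by edgeR). Per length, Sdha and Sdhd were the highest of the 36 genes, at means of 61.9 and 59.6 CPM per kb in young and 78.5 and 55.8 CPM per kb in old ISCs. Sdhb, the iron-sulphur subunit, was at 35.96 and 38.57 CPM in young and 53.9 and 48.2 CPM in old ISCs, with no overlap. It was the nearest to the threshold of the genes not called, at 0.45 (SE 0.13, FDR 0.0853 by edgeR), and was at 0.51 with offsets (FDR 0.0695). The paper's own limma list holds both Sdha and Sdhb as higher in old ISCs. Of the membrane anchors, Sdhc was at 0.11 (SE 0.12, FDR 0.719) and Sdhd at -0.095 (SE 0.13, FDR 0.768), each tested between ages by edgeR. Sdhd was at 65.6 and 81.2 CPM in young and 69.1 and 68.4 CPM in old ISCs, so that young pool 2 was the highest.

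From fumarate to oxaloacetate, Fh1, fumarate hydratase, had a log2 fold change of 0.15 (FDR 0.5998 by edgeR), or 0.065 without young pool 1 and 0.25 without young pool 2. Mdh2, the mitochondrial malate dehydrogenase that closes the cycle, was at 86.9 and 91.1 CPM in young and 93.4 and 102 CPM in old ISCs, at 0.13 (SE 0.12, FDR 0.625 by edgeR). Per length, Mdh1 and Mdh2 had means of 35.8 and 26.2 CPM per kb over the 4 pools. Of the malic enzymes, which turn malate into pyruvate in mitochondria, Me2 was at 152 and 164 CPM in young and 210 and 193 CPM in old ISCs, with no overlap. Its log2 fold change of 0.35 (SE 0.11) had an FDR of 0.120 by edgeR, while the paper's own limma list holds Me2 as higher in old ISCs. Me3, with 29 to 54 counts, was the only gene with both old pools below both young pools, at -0.33 (SE 0.35, FDR 0.677 by edgeR), or -0.62 without old pool 1 and -0.099 without old pool 2, and 569 bp of its exons overlap an antisense gene. Me1, the cytosolic malic enzyme and not among the 36, had 0 and 14 counts in young and 41 and 15 in old ISCs and was not called (FDR 0.192 by edgeR), though it was without young pool 2 and without old pool 2, and it is named after its values had been seen. Acly, ATP citrate lyase, which cleaves exported citrate for lipid synthesis, was at 56.4 and 54.5 CPM in young and 53.0 and 55.0 CPM in old ISCs, with a log2 fold change of -0.039 (SE 0.13, FDR 0.912 by edgeR).

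Ratios of 2 genes within a library do not depend on how libraries are scaled, and they were compared for 17 pairs, without a test. The old pools lay above both young pools in 1 pair, below both in 6, and overlapped them in 10, beside 24.0% of single genes above and 23.6% below among all tested, so that a separation of 2 pools against 2 is common. Cytosolic Idh1 over mitochondrial Idh2 was 0.801 and 0.713 in young and 1.43 and 1.22 in old ISCs, a difference of 0.81 on the log2 scale (pooled SD 0.14), or 0.63 from the fit with GC and length offsets. Mitochondrial Mdh2 over cytosolic Mdh1 was 1.14 and 1.31 in young and 0.932 and 0.834 in old ISCs, a difference of -0.47 (pooled SD 0.13), or -0.32 with offsets. In these pairs the cytosolic gene was the one called in the test above, from the same counts. Idh2 over Idh3a differed by -0.42 (pooled SD 0.022), or -0.28 with offsets. Sdhd over Sdha was 0.275 and 0.298 in young and 0.225 and 0.201 in old ISCs, a difference of -0.43, or -0.46 with offsets. Pdk1 over Pdha1 and Acly over Cs differed by -0.17 and -0.23, or by -0.074 and -0.19 with offsets. With 1 pool left out, they ran from -0.24 to -0.10 and from -0.32 to -0.15. Pcx over Pdha1 differed by -0.76. The last rests on old pool 1, with 4 counts of Pcx, and was -0.10 without it and -1.42 without old pool 2.

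Dld was also compared with its partners, in 5 pairs chosen after its call had been seen. Dld over Pdha1 was 1.14 and 1.31 in young and 1.91 and 1.53 in old ISCs, and Dld over Ogdh was 0.814 and 0.811 in young and 1.13 and 1.37 in old ISCs. The differences over Pdha1, Pdhb, Dlat, Ogdh and Dlst were 0.48, 0.33, 0.50, 0.62 and 0.72 on the log2 scale, and the ages overlapped in none. From the fit with GC and length offsets they were 0.42, 0.27, 0.38, 0.39 and 0.53 in the same order.

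**Figure D3:**
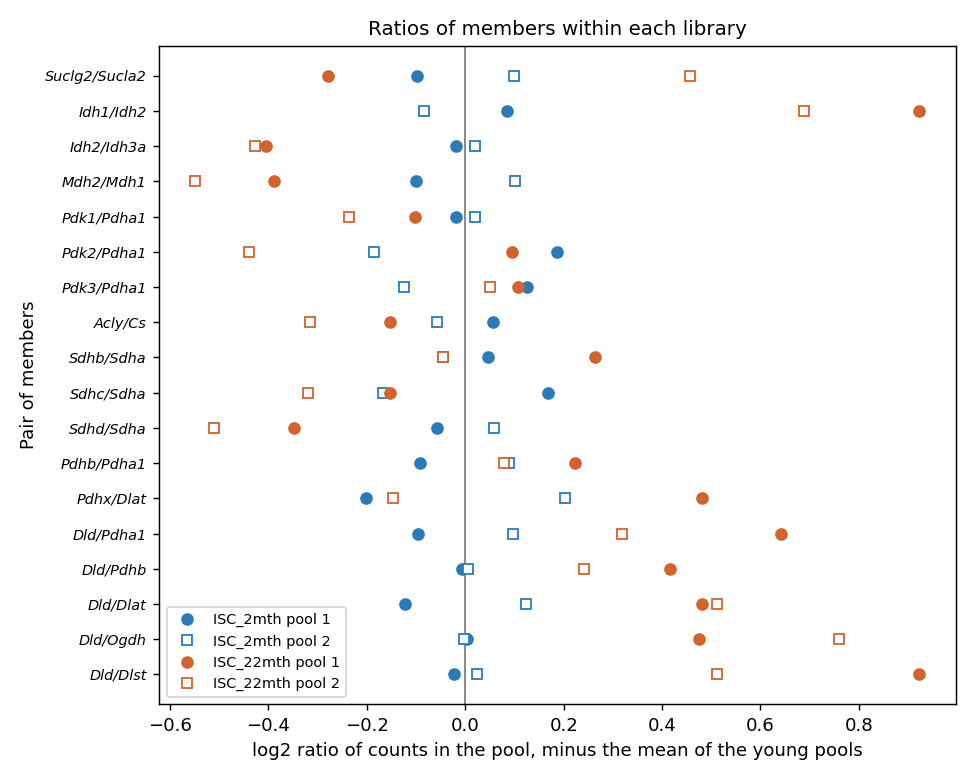
Log2 ratio of the counts of 2 genes in each pool, minus the mean of the young pools (horizontal axis), for the 13 of 17 pairs with at least 100 counts of each gene in every pool and the 5 pairs with Dld (rows); blue, young; orange, old. Old pools lie right of both young pools for Idh1/Idh2 and the pairs of Dld, and left of them for Mdh2/Mdh1, Idh2/Idh3a, Sdhd/Sdha, Pdk1/Pdha1 and Acly/Cs.

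The log2 fold change moved with GC content, the share of G and C in the exons. Over all genes in 5 groups of rising GC content, the median fell from 0.10 in the lowest to -0.17 in the highest, and the members' medians from 0.36 (5 genes) to 0.015 (3 genes). Across genes, which are not independent replicates and share the libraries, Spearman's rho of the log2 fold change with GC content was -0.22 over 13236 genes and -0.57 over the 34 members, and it was -0.045 and -0.30 with the offsets. Dld, at 39.3%, had the lowest GC content of the 34 and Sdhb, at 55.3%, one of the highest. With offsets, 31 of the 34 lay above 0, with a median of 0.17, beside 7082 of all 13692 genes and a median of 0.014. In that fit 8 of the 34 were higher at an unadjusted p under 0.05, beside 1172 of all genes.

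**Figure D4:**
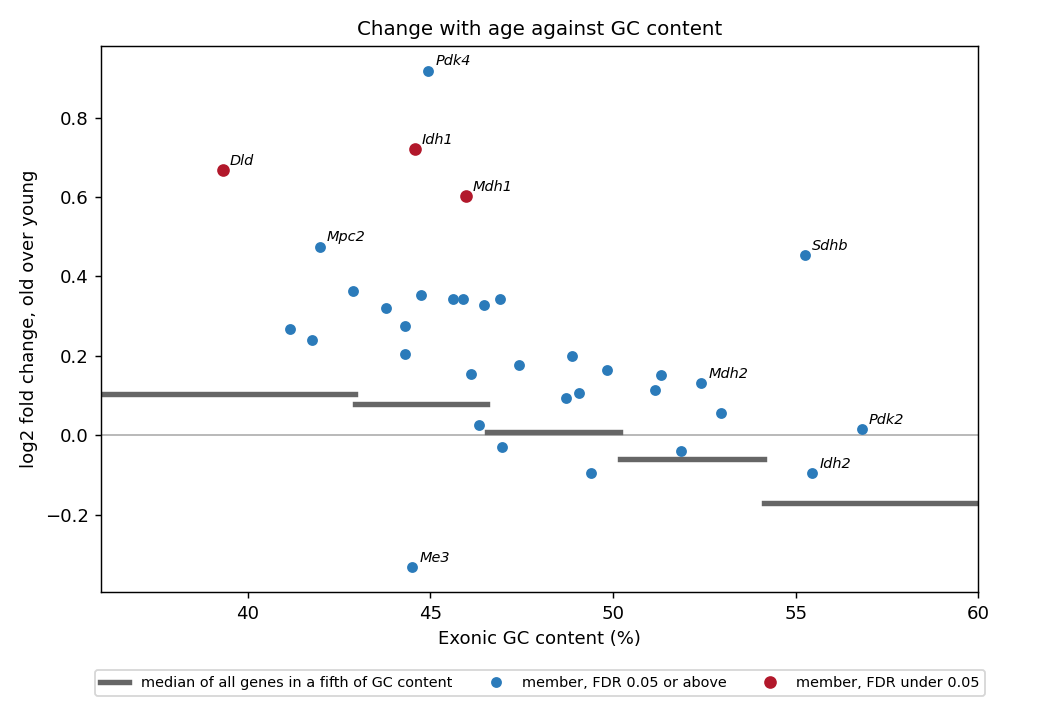
Log2 fold change of old over young ISCs (vertical axis) against exonic GC content in percent (horizontal axis) for the 34 genes tested, as points, with the 3 called in red; grey bars are the medians of all genes in 5 groups of GC content, drawn over each group's range within the plot. Most points lie above the grey bar of their group, Sdhb at 55.3% among them and Me3 below.

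Around the cycle, 68 further genes of lipoylation, assembly, substrate supply, carriers and regulators were read from the same fit, and 58 were tested. None passed an FDR of 0.05 with edgeR's quasi-likelihood test, limma or DESeq2, while edgeR's likelihood ratio test called 3 (Pccb, Mut and Ppard), a share near that of all genes in that test (611 of 13692). At an unadjusted p under 0.05, 7 were higher and 3 lower, beside 9.26% of all genes higher and 16.9% in either direction. The log2 fold change lay above 0 in 31 of 58 (8 by total counts), or 53.4%, near the 49.5% of all genes, with a median of 0.13. Pccb, a subunit of propionyl-CoA carboxylase, was at 0.54 (SE 0.15, FDR 0.0598 by edgeR) and Mut, methylmalonyl-CoA mutase, at 0.54 (SE 0.15, FDR 0.0694 by edgeR), both of which lead propionate into succinyl-CoA. The paper's own limma list, at an FDR under 0.05, holds Pccb and Mut as higher in old ISCs. Ppard, a nuclear receptor of fatty acid use, was at -0.51 (SE 0.15, FDR 0.0787 by edgeR). With offsets for GC content and length, edgeR put Pccb at 0.56 (FDR 0.0629), Mut at 0.42 (FDR 0.179) and Ppard at -0.30 (FDR 0.3665). These 3 were named after their values had been seen. Scaled by total counts, 1342 of all 13692 genes lay above 0. By list, the regulators had 3 of 11 above 0 (0 by total counts) with a median of -0.17, the glutamine and aminotransferase genes 3 of 8 (1 by total counts) with a median of -0.074, and the carriers of cycle intermediates 4 of 7 (0 by total counts) with a median of 0.24. Lipoylation and phosphatase genes had 5 of 8 above 0 (1 by total counts, median 0.14), genes of succinate dehydrogenase assembly 3 of 4 (1 by total counts, median 0.34), and genes of pyruvate and lactate supply 4 of 7 (1 by total counts, median 0.14). Genes of propionate and ketone supply had 4 of 7 (2 by total counts, median 0.18), and paralogs and further cycle enzymes 5 of 6 (2 by total counts, median 0.29).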

How the data were processed

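RNA of SM6-sorted ISCs was sequenced in 4 libraries (HiSeq3000), 2 pools of 5 animals per age. Per the labels and the paper's Methods, the authors cropped reads with Trimmomatic 0.30, aligned them with STAR 2.4.2a to the GRCm38 primary assembly, counted exonic reads of GENCODE vM15 genes with featureCounts and deposited raw counts per gene. Strand setting and the handling of multi-mapped reads are not given in the sources used here.

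Of 52459 genes, the 13692 with over 5 reads and over 1 CPM in any pool were compared with edgeR 4.0.16 (R 4.3.3; TMM, quasi-likelihood test, two-sided, Benjamini-Hochberg, FDR 0.05). Scaled by total counts, with mitochondrially encoded genes kept in, replicate pools differed beyond sampling noise (mean chi-square per gene of 9.42 in young and 7.11 in old ISCs). A few genes with high counts can carry this mean, so it does not measure the spread of a typical gene. Alternatives were voom in limma 3.58.1, plain or with sample quality weights, DESeq2 1.42.0, edgeR's likelihood ratio test, 4 other scalings, 3 other filters, the replicate number as a block, GC and length offsets (lowess span 0.3, 3 iterations), and each pool left out. Scripts were tested on simulated counts.

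Positions, lengths, GC content and shared 50-nt stretches came from GENCODE vM21 of GRCm38, matched by symbol (47976 genes; 4373 matched none), and promoter sequences from RefSeq. All 36 members are given, with values per pool for those with an FDR or unadjusted p under 0.05 and for the main steps. The rule was to name list genes only if called, and none was called in the fit as reported. Pccb, Mut, Ppard and Me1, which other fits called, are given after their values had been seen, and Pdp2 is given beside Pdp1. Not every list gene called in another fit is named. A further list gene that the rule names, and a further marker gene, are not reported here. The members and lists were chosen with earlier results of these data known. Floors cover counting error only, while standard errors come from the fit and include the spread between pools. Between 3852178 and 4593004 counts per library outside mitochondrially encoded genes limit low genes such as Mpc1 and Pcx.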

Additional observations from a re-analysis of the deposited data

How the results depend on the processing

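With 1 setting changed at a time, the genes called among all genes tested numbered 309 as reported. They numbered 197 with DESeq2, 611 with the likelihood ratio test, 4632 scaled by total counts, 554 without a filter and 188 with GC and length offsets. A setting can move more than 1 choice. DESeq2 brings its own scaling, and leaving out a pool or the mitochondrially encoded genes can also change which genes pass the filter. Members called numbered 3 as reported, 9 by total counts (all lower), 1 with offsets, and 1 to 5 with 1 pool left out. The fit without young pool 1 called 151 genes and 2 members (Mdh1 and Pdk4), without young pool 2 291 genes and 1 member (Dld), without old pool 1 652 genes and 4 members (Dld, Mdh1, Sdha and Suclg2), and without old pool 2 710 genes and 5 members (Dld, Mdh1, Idh1, Sdhb and Me2). The members' median was -0.29 by total counts and 0.11 to 0.28 with 1 pool left out. Other genes of the pathway called numbered 3 with the likelihood ratio test, 17 by total counts, 1 (Pccb) with TMM without mitochondrially encoded genes, 3 without a filter (Me1, Pccb and Mut) and 0 to 3 with 1 pool left out. Where 1 pool is left out, the lone pool of its age is assumed to vary like the others. The cause of these changes was not tested.

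The same replicate numbers in both ages are different animals, and same-numbered pools did not deviate together (correlation -0.000148). With the replicate number as a block, 624 genes, 4 members (with Pdk4, FDR 0.0128) and 4 other pathway genes were called, and with block and offsets together 132 genes and 1 member.

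Scaled by total counts, where the median of all genes is -0.495, log2 fold changes turned negative for Mpc2 (-0.011), Pdha1 (-0.28), Pdhb (-0.14), Dlat (-0.31), Pdhx (-0.12), Pdk1 (-0.46), Pdk2 (-0.48), Pdk3 (-0.22), Pdp1 (-0.22), Pck2 (-0.37), Cs (-0.29), Aco1 (-0.34), Idh3a (-0.17), Idh3b (-0.39), Idh3g (-0.33), Ogdh (-0.43), Suclg1 (-0.16), Suclg2 (-0.14), Sucla2 (-0.25), Sdha (-0.14), Sdhb (-0.037), Sdhc (-0.39), Fh1 (-0.33), Mdh2 (-0.36) and Me2 (-0.14). By the upper quartile Pdk1 was at -0.016 and Pdk2 at -0.028, and Pdk2 at -0.0080 with at least 10 counts in every library. With offsets Dlst was at 0.017 and Acly at 0.042, and with block and offsets at 0.0029 and 0.042. With 1 pool left out, signs turned for Pdk1 (-0.10 to 0.15), Ogdh (-0.066 to 0.18), Pdk2 (-0.14 to 0.18), Dlst (-0.28 to 0.19), Sdhd (-0.24 to 0.065), Pck2 (-0.017 to 0.24), Aco1 (-0.10 to 0.37) and Idh3b (-0.022 to 0.21). Ratios whose ages did not overlap numbered 7 of 17, and 11 to 14 with 1 pool left out, where 1 pool against 2 overlaps less often by construction. The log2 difference between ages in the ratio of Suclg2 to Sucla2 then lay between -0.28 and 0.46, and that of Sdhb to Sdha between -0.046 and 0.26.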
